A study of Homo sapiens with 39 samples.

Results

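IM-9 is a human B-lymphoblastoid cell line carrying Epstein-Barr virus, and the labels call it sensitive to ch128.1Av. That agent is an antibody to transferrin receptor 1 fused to avidin. Its expression after 24 h with ch128.1Av at 10 nM (2 arrays) was compared with that after 24 h with buffer (2 arrays). These 4 arrays, chosen by line, treatment and hour in the labels, are part of a series of 39. The series also holds 15 IM-9 arrays (untreated at 0 h, then buffer or ch128.1Av at 1, 3 and 9 h) and 20 arrays of U266, a myeloma line that the labels call tolerant, taken by the same scheme. As far as the labels say, the arms of 24 h differed only in ch128.1Av and carried no other agent; the buffer's content is not given, and the control arrays are also labelled as having had no treatment. Nothing in the labels tells separate cultures from repeat arrays, so p-values measure only the spread between arrays of a group, which may be technical. In the main fit that spread, and so each SE, was pooled over the 18 groups of all 39 arrays, not taken from these 4 arrays alone.

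Transferrin receptor 1, the product of TFRC, carries iron-loaded transferrin into the cell by endocytosis, and dividing cells need that iron for heme, iron-sulfur clusters and ribonucleotide reductase. When iron is short, iron regulatory proteins bind the TFRC mRNA and protect it from decay. The transcription factor p53 raises genes that halt the cell cycle, repair DNA or start apoptosis, and heat shock factor HSF1 raises cytosolic chaperones when unfolded proteins accumulate. B cells that turn toward plasma cells raise IRF4 and PRDM1 and lose surface genes of the B cell.

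The treated arrays were dimmer than the buffer arrays. Brightness was taken as the 75th percentile of an array's raw intensities divided by their 5th percentile, and it was 9.24 and 9.29 on the buffer arrays, 6.71 on treated replicate 1 and 3.97 on treated replicate 2. The 15 IM-9 arrays of 0 to 9 h lay between 4.22 and 6.89, so the buffer arrays of 24 h were brighter, and treated replicate 2 dimmer, than every one of them. Raw intensity was lower on both treated arrays than on both buffer arrays for 86.5% of the 11538 genes tested and higher on both for 0.399%. Of the 712 genes that rose after scaling, 9 were higher on both treated arrays in raw intensity, TP53I3 and DDB2 among them, while all 839 that fell were lower on both. A rise below is thus a rise against the other probes of the same array, after quantile normalization gave all arrays one distribution. Between 9392 and 9653 probes were detected on each of the 4 arrays. Of the B cell markers, 8 of 10 with a probe were detected on all 4 (CD79A, CD79B, CD22, CD40, HLA-DRA, CD74, FCER2 and EBI3), and MS4A1 and PAX5 on none. None of 5 T cell and of 3 erythroid markers was called detected, and of the NK cell, myeloid, epithelial and stromal lists, NKG7, CSF1R, KRT18 and VIM alone were detected on all 4 arrays. The deposited score also leaves 86 to 121 probes with a raw intensity over 500 undetected on each of the 4 arrays, so an undetected marker is not shown to be absent. No marker detected on none of the arrays exceeded that intensity on all 4.

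**Figure D1:**
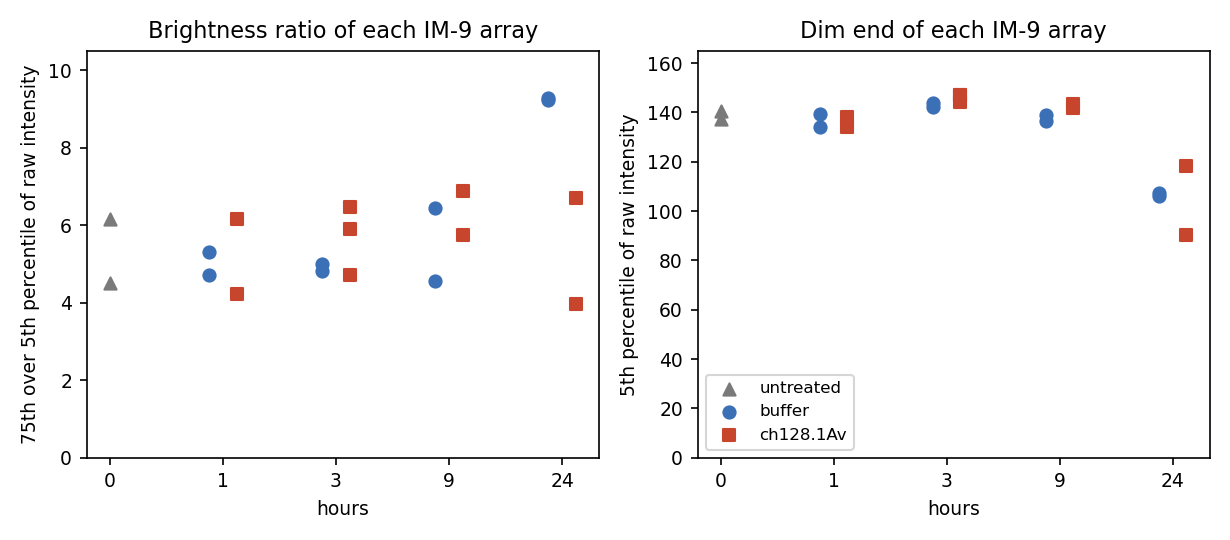
Brightness of the 19 IM-9 arrays by hour, 1 point per array. Left, the 75th percentile of raw intensity divided by the 5th; right, the 5th percentile in scanner units. The buffer arrays of 24 h stand highest at 9.24 and 9.29 on the left, and the 4 arrays of 24 h lie at 90.4 to 118.1 on the right, below the 134 to 147.2 of the earlier arrays.

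At 24 h many genes differed by small amounts between the ch128.1Av and buffer arms, which array brightness also separates; its part in the differences was not tested gene by gene. Values are log2 levels after background correction and normalization, and a difference is treated minus buffer, ± its SE from the fit, with 2 arrays a group and the limma adjusted p. At an adjusted p under 0.05, 712 genes rose (6.17% of those tested) and 839 fell (7.27%). These shares of all genes are the ones to set beside each list count below. Their median size was 0.32, 6 rose by 2-fold or more and none fell by that much, and 80 rose and 59 fell by 1.5-fold or more. Both treated arrays lay above both buffer arrays in 706 of the risen genes, against 23.2% of all genes, and below both in 828 of the fallen, against 24.9% of all genes. In 341 of the risen genes the treated arrays also exceeded the other 17 IM-9 arrays, against 755 (6.54%) of all genes tested, and in 317 of the fallen they lay below all 17, against 648 (5.62%) of all genes tested. The differences on treated replicate 2, the dimmer array, were wider (SD over genes 0.26) than those on replicate 1 (0.15), with a correlation of 0.70 across genes, which are not independent and share the buffer mean.

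**Figure D2:**
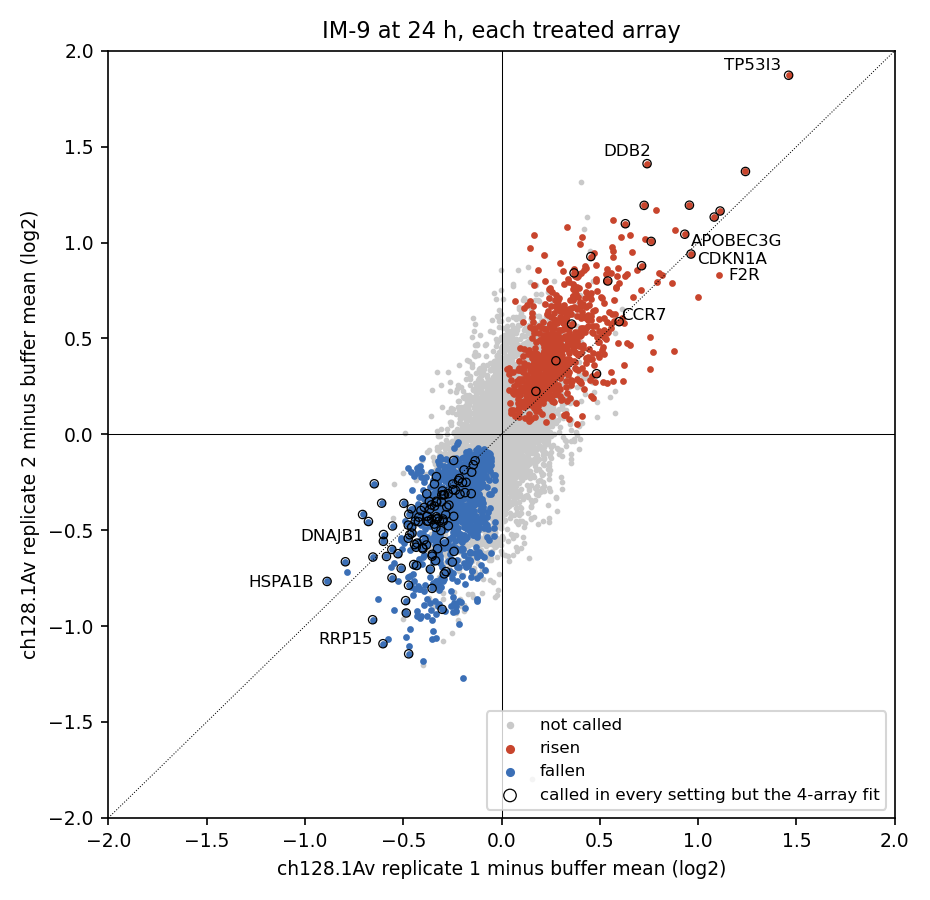
Difference from the buffer mean on treated replicate 1 (x axis) and replicate 2 (y axis), in log2, 1 point per gene tested. Risen genes (712) are red, fallen genes (839) blue, the dotted line marks equal differences, and circles mark the 20 risen and 104 fallen genes called in every processing but the fit of 4 arrays. The called genes spread farther along the axis of replicate 2, whose differences had an SD of 0.26 over genes against 0.15 for replicate 1.

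A smaller set was called under the main processing and 15 others, among them equal medians, a brightness covariate and the loss of any 1 array: 20 genes rose (0.173% of those tested) and 104 fell (0.901%). A fit of the 4 arrays by themselves, with 2 residual degrees of freedom, called no gene (1575 at an unadjusted p under 0.05, by limma) and was set aside for this count after that was seen. Genes in this set are called steady below. Equal medians, under which the median of all genes was -0.15, kept 46 of the 712 risen and 426 of the 839 fallen calls. The brightness covariate kept 246 and 259. The larger number of steady falls therefore does not show that falls were firmer than rises. The 12 steady risen genes with the smallest p were APOBEC3G, TP53I3, PHLDA3, CRYBG1, DHRS3, CDKN1A, RIMKLA, TFRC, PRKX, GADD45A, DDB2 and CCL3L3. The 12 steady fallen genes were IL16, FJX1, HSPA1B, ELL3, HOXB7, DNAJB1, PAM16, KYNU, ZBTB9, NAA15, STEAP1 and SRSF6.

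**Figure D3:**
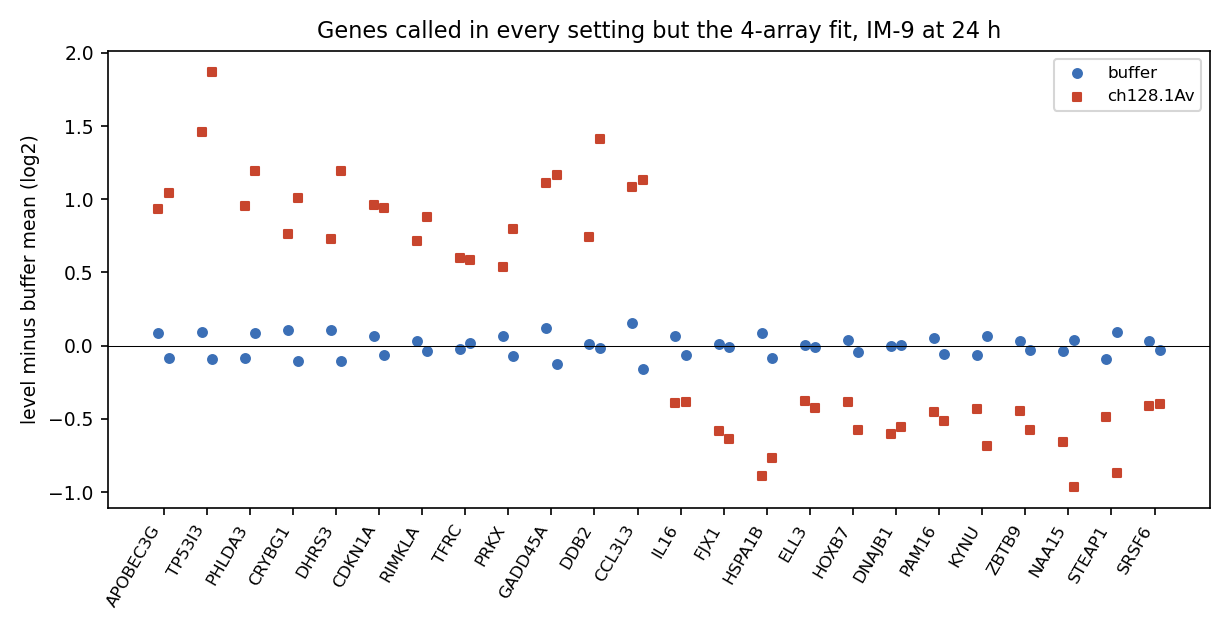
Level of each of these 24 genes on the 4 arrays, in log2 relative to the buffer mean; blue points are buffer arrays and red squares treated arrays, replicate 1 on the left. In each gene both treated arrays lie outside the buffer arrays, farthest above in TP53I3 (1.67 on average) and farthest below in HSPA1B (-0.83).

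Targets of p53 for arrest, repair and feedback rose together: 16 of 21 tested rose, none fell, and their median difference was 0.51 against -0.00 for all genes tested. In 15 of the 16 the treated arrays exceeded every other IM-9 array, as they did in 341 of all 712 risen genes and 6.54% of all genes tested. TP53I3, a quinone oxidoreductase-like enzyme, stood at 9.69 and 9.50 on the buffer arrays and at 11.05 and 11.47 on the treated arrays. It rose 3.17-fold (1.67 ± 0.10, adjusted p = 7.67e-11), and its raw intensity went from 1458 and 1307 to 1936 and 1817. CDKN1A, the cyclin-dependent kinase inhibitor p21, was at 12.76 and 12.62 with buffer and at 13.65 and 13.63 with ch128.1Av, a rise of 0.95 ± 0.09 (adjusted p = 8.93e-08). The treated levels of both genes stood clear of the buffer levels, and those of CDKN1A were nearly alike. GADD45A, which acts in arrest after DNA damage, rose by 1.14 ± 0.12 (adjusted p = 1.09e-06). PHLDA3, a repressor of AKT, rose by 1.08 ± 0.08 and SPATA18, which acts in mitochondrial quality control, by 0.53 ± 0.04. DDB2, the damage sensor of nucleotide excision repair, was at 8.59 and 8.57 against 9.32 and 9.99, so that the treated arrays differed from each other by more than the buffer arrays did. It rose by 1.08 ± 0.12 (adjusted p = 2.15e-06). With the brightness ratio as a covariate 16 of the list were called risen, 14 without treated replicate 2, 14 without buffer replicate 2, and 5 under equal medians, with a median of 0.16.

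Of the apoptotic p53 targets, 5 of 13 rose and none fell, with a median of 0.13. The death receptor gene FAS stood at 8.54 and 8.49 with buffer and at 8.97 and 9.44 with ch128.1Av, both treated arrays being above both buffer arrays. It rose by 0.69 ± 0.11 (adjusted p = 0.000137) and was steady, although its raw intensity was lower on the treated arrays (578.9 and 580.5) than on the buffer arrays (675.9 and 644). TNFRSF10B, a receptor for TRAIL, rose by 0.40 ± 0.06, the pore-forming BAX by 0.43 ± 0.10 and the nuclease AEN by 0.25 ± 0.07. BBC3, which encodes PUMA, was at 8.24 and 8.16 against 8.23 and 8.29, groups that overlapped, with a difference of 0.06 ± 0.07 (adjusted p = 0.655). Of this list the number called risen was 3 with the brightness covariate, 3 without treated replicate 2, 4 without buffer replicate 2 and 1 under equal medians. Among 20 tested members of the BCL2 family and the caspases, 1 rose: CFLAR, which encodes the caspase-8 inhibitor c-FLIP, by 0.53 ± 0.08 (adjusted p = 0.000135).

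The promoter windows of RefSeq (build GRCh38.p14; 250 bases before to 50 after a start, 35116 windows) were searched for the p53 response element, taken as its 20-base consensus of 2 half-sites with no spacer, core C and G fixed and up to 2 mismatches elsewhere. It lay in 0.285% of all windows and in a window of 0.359% of 27305 genes. Of the 16 risen arrest and repair targets 11 had a window and 2 held a match, DDB2 and MDM2, and of the 5 risen apoptotic targets 4 had a window and 2 held a match, AEN and FAS. None of the members that were not called held one, among 5 and 7 with a window. The stretches are shown because these members rose together, with the match in capitals; MDM2, which encodes the ligase that degrades p53 and rose by 0.16 ± 0.03 (adjusted p = 0.00259), was added after its values were seen. In DDB2 the match runs over the start of transcription, and in the others it lies before it. A match describes these letters and no binding was measured.
DDB2, chr11:47214949-47214988, plus strand, 5′ to 3′: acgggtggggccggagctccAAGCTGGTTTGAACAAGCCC
MDM2, chr12:68808903-68808962, plus strand, 5′ to 3′: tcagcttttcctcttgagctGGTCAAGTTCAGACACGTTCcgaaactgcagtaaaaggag
FAS, chr10:88991289-88991348, plus strand, 5′ to 3′: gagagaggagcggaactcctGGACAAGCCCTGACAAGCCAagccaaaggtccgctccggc
AEN, chr15:88621286-88621339, plus strand, 5′ to 3′: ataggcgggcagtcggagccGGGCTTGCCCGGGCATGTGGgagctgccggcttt

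Genes of antiviral cytidine deaminases rose beside the p53 targets. APOBEC3 enzymes deaminate cytidine in single-stranded DNA, and 5 of the 7 tested members of that list rose and none fell, with a median of 0.46. APOBEC3G stood at 9.12 and 8.95 on the buffer arrays and at 9.96 and 10.07 on the treated arrays, and every IM-9 array up to 9 h lay between 8.85 and 9.11. It rose 1.98-fold (0.99 ± 0.05, adjusted p = 1.47e-11), which was the smallest adjusted p of all genes tested. APOBEC3H rose by 0.55 ± 0.07, APOBEC3B by 0.46 ± 0.11 and APOBEC3F by 0.22 ± 0.05, where a second APOBEC3F probe gave 0.38. In APOBEC3H and APOBEC3B the buffer level at 24 h itself lay above all IM-9 arrays of 0 to 9 h. These genes are close paralogs, so the signal of one probe may include another member. The number of the list called risen was 3 with the brightness covariate, 2 without treated replicate 2, 3 without buffer replicate 2 and 1 under equal medians.

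Of 14 tested chemokine and receptor genes, 6 rose and 3 fell. The fallen numbered 0 with the brightness covariate and 2 under equal medians. CCR7, the receptor that guides B cells and T cells to lymph nodes, was at 12.58 and 12.57 with buffer and at 13.14 and 13.20 with ch128.1Av. The replicates of each arm lay close together and the arms far apart, and the rise of 0.59 ± 0.03 had an adjusted p of 2.95e-11. CCL3L3 and CCL3, near-identical genes of inflammatory chemokines whose probes may read each other, rose by 1.11 ± 0.14 and 0.82 ± 0.10. CCL3L3 stood at 10.52 and 10.21 against 11.44 and 11.50, with no overlap. Its level also moved with the hour: at 1 h it was 11.15 and 11.21 with buffer and 11.28 and 11.41 with ch128.1Av. CCL3 stood at 11.30 and 11.45 with buffer at 1 h. In the chemokine list the risen genes numbered 5 with the brightness covariate, 5 without treated replicate 2, 5 without buffer replicate 2 and 1 under equal medians. CXCL10, a chemokine raised by interferon, rose by 0.33 ± 0.05.

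Of 29 tested interferon-stimulated genes 7 rose and 1 fell, with a median of 0.04, and of 12 for MHC class I and peptide loading 4 rose and none fell, with a median of 0.23. Of the interferon list the risen numbered 3 with the brightness covariate, 3 without treated replicate 2, 2 without buffer replicate 2 and 0 under equal medians. HERC5, the ligase for the ubiquitin-like ISG15, rose by 0.55 ± 0.07 and IFI35 by 0.51 ± 0.08, while TRIM21, a cytosolic antibody receptor, fell by 0.53 ± 0.11. TAP1, a subunit of the peptide transporter, was at 12.82 and 12.68 against 13.14 and 13.21, and rose by 0.43 ± 0.05 (adjusted p = 2.07e-06). TAPBPL rose by 0.55 ± 0.11, HLA-E by 0.28 ± 0.07 and HLA-F by 0.34 ± 0.10. HLA-E and HLA-F lost the call without treated replicate 2; of the 12, 1 was then called risen, 1 without buffer replicate 2, 2 with the covariate and 0 under equal medians. Among 16 class II genes 6 rose and 1 fell: HLA-DQB1 rose by 0.60 ± 0.11, HLA-DRB4 by 0.41 ± 0.09 and HLA-DPA1 by 0.25 ± 0.06, and HLA-DPB1 fell by 0.30 ± 0.06. Of the class II genes 0 were called risen without treated replicate 2, 2 with the covariate, 4 without buffer replicate 2 and 0 under equal medians. HLA genes are polymorphic and alike, so these probes are uncertain.

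Among plasma cell regulators and markers, 9 of 20 rose and none fell, with a median of 0.27. That count was 3 without treated replicate 2, 3 without buffer replicate 2, 4 with the brightness covariate and 0 under equal medians. Among B cell transcription factors and surface genes, 5 of 29 rose and 3 fell, with a median of -0.03, and 1 of them was called risen without treated replicate 2; the lists were not tested against each other. IRF4, which directs B cells toward plasma cells, was at 10.90 and 11.06 with buffer and at 11.53 and 11.62 with ch128.1Av, a rise of 0.59 ± 0.08 (adjusted p = 3.75e-05). The treated level was within the range of the arrays at 0 to 9 h (11.30 to 11.87), and the buffer level at 24 h lay below all of them. PRDM1, the repressor BLIMP1, was at 8.98 and 9.46 against 10.01 and 10.01 and rose by 0.79 ± 0.15 (adjusted p = 0.00123), while a second PRDM1 probe gave -0.04 and was not called. TNFRSF17, the receptor BCMA, rose by 0.34 ± 0.07. CR2, the complement receptor that Epstein-Barr virus binds, was at 10.21 and 10.37 against 9.80 and 9.35. Its fall of 0.71 ± 0.09 (adjusted p = 1.38e-05) was steady, though the buffer level at 24 h lay above all arrays of 0 to 9 h (9.45 to 9.87). POU2F2, the B cell factor OCT2, rose by 0.60 ± 0.12 and FCER2, which encodes CD23, by 0.28 ± 0.06. Summed over the 6 plasma cell markers used to check identity, the level was 15382 to 15438 on the buffer arrays and 18928 to 19955 on the treated arrays. The stromal list, of which VIM was detected, summed to 4155 to 4563 against 5284 to 5624; its part in these rises was not tested.

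Cytosolic heat shock chaperones fell: 9 of 26 tested fell, none rose, and the median was -0.19. HSPA1B, the stress-induced HSP70, stood at 10.87 and 10.70 with buffer and at 9.90 and 10.02 with ch128.1Av, and fell by 0.83 ± 0.08 (adjusted p = 2.28e-07). DNAJB1, the HSP40 that works with it, was at 9.91 and 9.92 against 9.31 and 9.35, and fell by 0.58 ± 0.06 (adjusted p = 1.35e-06). In both genes the arms did not overlap and the replicates lay close together, yet the level also moved with the hour in buffer: HSPA1B ran from 9.30 at 1 h to 11.37 at 9 h, and DNAJB1 from 9.32 to 10.13. The treated levels at 24 h lay inside the range of the earlier arrays. HSPA1B is nearly identical to its neighbour HSPA1A, whose own probe did not pass the detection filter, so the pair cannot be told apart here. CHORDC1, a partner of HSP90, fell by 0.75 ± 0.18 (adjusted p = 0.00814) and FKBP5, an HSP90 cochaperone, by 0.33 ± 0.08. The number of the list called fallen was 3 without treated replicate 2, 3 without buffer replicate 2, 3 with the brightness covariate and 4 under equal medians; HSPA1B and DNAJB1 were called in each.

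The same windows were searched for a heat shock element of 3 units, GAA and TTC in turn with 2 free bases between units, starting with either, which covers both strands; matches may overlap. It lay in 0.490% of all windows and in a window of 0.608% of genes. All 9 fallen chaperones had a window and 4 held the element (CHORDC1, DNAJA1, HSP90AB1 and HSPA8), and of the 13 with a window that were not called 2 did (DNAJB6 and HSP90AA1). No window of HSPA1B or DNAJB1 held it in this form. The stretches of 3 fallen members are shown with the element in capitals, all before the start. The HSPA8 window holds 2 matches, of which 1 is shown and the other, farther upstream, is left out. HSPA8, the constitutive HSP70, fell by 0.26 ± 0.07 (adjusted p = 0.0186) and HSP90AB1, the constitutive HSP90, by 0.20 ± 0.06 (adjusted p = 0.0393); both were named after their values were seen.
CHORDC1, chr11:90223067-90223129, minus strand, 5′ to 3′: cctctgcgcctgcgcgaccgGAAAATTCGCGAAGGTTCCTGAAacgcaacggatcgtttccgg
HSPA8, chr11:123062159-123062211, minus strand, 5′ to 3′: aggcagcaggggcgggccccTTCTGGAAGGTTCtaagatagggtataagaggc
HSP90AB1, chr6:44247758-44247863, plus strand, 5′ to 3′: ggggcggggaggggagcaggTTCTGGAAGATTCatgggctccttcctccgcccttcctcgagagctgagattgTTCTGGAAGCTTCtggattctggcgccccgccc

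Of 15 tested subunits of the CCT chaperonin and prefoldin 3 fell (CCT4 by 0.46 ± 0.11, CCT2 by 0.34 ± 0.06 and CCT5 by 0.30 ± 0.09) and none rose. Of 21 mitochondrial chaperones and import factors 3 fell, among them TIMM10 by 0.36 ± 0.07 and HSPA9, the mitochondrial HSP70, by 0.29 ± 0.07. In the endoplasmic reticulum the pair of major chaperones split. HSPA5, which encodes BiP, was at 10.08 and 10.06 against 9.54 and 9.44 and fell by 0.57 ± 0.08 (adjusted p = 3.66e-05). HSP90B1, which encodes GRP94, was at 13.71 and 13.75 against 14.07 and 14.29 and rose by 0.44 ± 0.07 (adjusted p = 7.21e-05). SEC61B, a subunit of the translocon, rose by 0.58 ± 0.13 and the disulfide isomerase PDIA4 by 0.44 ± 0.14, so that 4 of 20 members of this list rose and 1 fell. Without treated replicate 2, 1 of that list was called risen, and under equal medians 0; 1 of the CCT list and 0 of the mitochondrial list were called fallen without that array. Among 22 ATF4 targets 2 rose, ATF5 by 0.53 ± 0.08 and ATF4 itself by 0.61 ± 0.17, and CEBPG fell by 0.42 ± 0.06. With the brightness covariate ATF4 was 0.15 (limma adjusted p = 0.39) and PDIA4 0.13 (limma adjusted p = 0.63), so neither was called. Of the ATF4 list 1 was called risen with that covariate and 0 under equal medians. Of all genes tested, 6.17% rose and 7.27% fell.

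**Figure D4:**
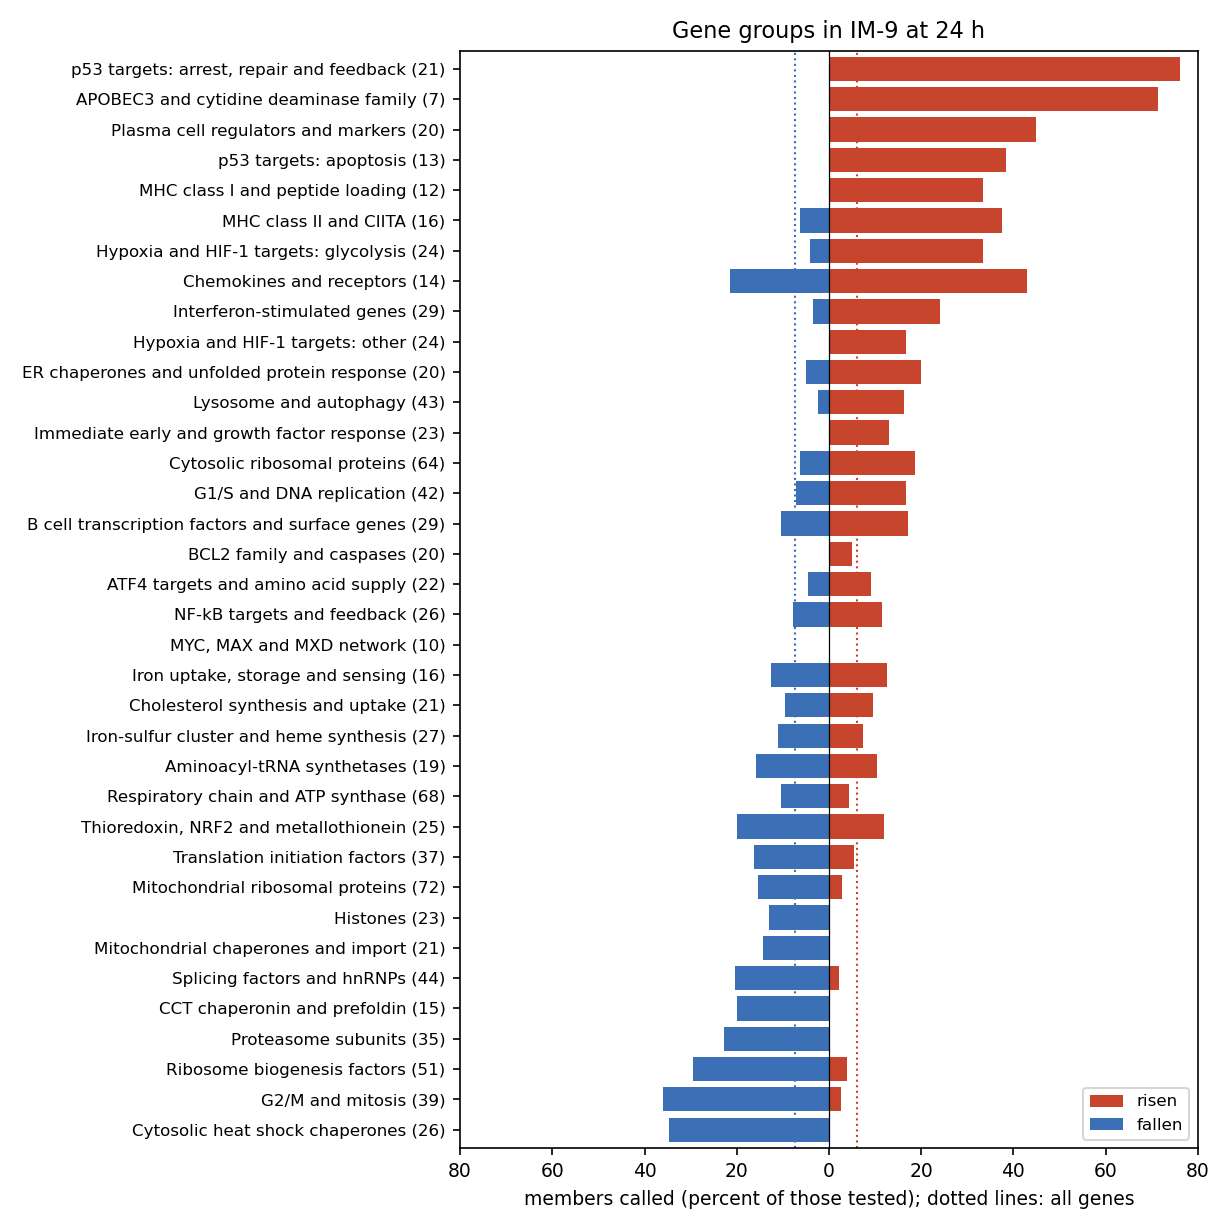
Share of the tested members of each of 36 gene groups that rose (red, to the right) or fell (blue, to the left) in IM-9 at 24 h, in percent, with the number tested in brackets. Dotted lines mark all genes tested, 6.17% risen and 7.27% fallen; p53 targets for arrest and repair reach farthest to the right (16 of 21) and mitotic genes farthest to the left (14 of 39).

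Of 39 genes of G2/M and mitosis 14 fell, against 7.27% of all genes, and 1 rose, with a median of -0.21. AURKA, the kinase that builds the spindle poles, was at 12.74 and 12.64 against 12.25 and 12.24 and fell by 0.45 ± 0.06 (adjusted p = 1.11e-05). CDC20, which activates the anaphase-promoting complex, was at 14.40 and 14.27 against 13.88 and 13.95 and fell by 0.42 ± 0.07 (adjusted p = 0.000302). Both genes were steady and their arms did not overlap. AURKB fell by 0.36 ± 0.07 and UBE2C by 0.20 ± 0.04. The proliferation marker MKI67 was at 8.65 and 8.33 against 8.41 and 8.57, an overlap with a difference of -0.00 ± 0.17 (adjusted p = 0.995). In G1/S and DNA replication 7 of 42 rose and 3 fell: TYMS, thymidylate synthase, rose by 0.34 ± 0.04 and PCNA, the sliding clamp that p53 also raises, by 0.57 ± 0.13. The number of mitotic genes called fallen was 5 without treated replicate 2, 8 without buffer replicate 2, 5 with the brightness covariate and 5 under equal medians. In the G1/S list 2 were called risen without treated replicate 2 and 0 under equal medians.

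Ribosome assembly genes fell while MYC did not pass the test. Of 51 ribosome biogenesis factors 15 fell and 2 rose, with a median of -0.15, and in 13 of the 15 the treated arrays lay below every other IM-9 array, as they did in 317 of all 839 fallen genes and 5.62% of all genes tested. RRP15, an assembly factor of the large subunit, was at 11.23 and 11.65 against 10.84 and 10.35, and had the largest fall of all genes tested, 0.85 ± 0.13 (adjusted p = 0.000156). The kinase RIOK1 fell by 0.53 ± 0.08, LTV1, a factor of the small subunit, by 0.38 ± 0.05 and WDR12, a factor of the large one, by 0.32 ± 0.06. MYC, which drives many of these genes, was at 12.49 and 12.57 against 12.52 and 12.62, with a difference of 0.04 ± 0.06 (adjusted p = 0.767), and none of 10 tested members of its network was called. The ribosomal proteins themselves did not fall as a group: 12 of 64 cytosolic ones rose, RPS3A by 0.56 ± 0.12 and RPL8 by 0.47 ± 0.08, and 4 fell, RPL28 by 0.36 ± 0.07. These genes have many pseudogene copies. Mitochondrial ones showed 11 of 72 fallen and 2 risen, with MRPL48 lower by 0.51 ± 0.09 and MRPS23 by 0.44 ± 0.09. Called fallen were 4 biogenesis factors without treated replicate 2, 8 without buffer replicate 2, 9 with the brightness covariate and 7 under equal medians. For mitochondrial ribosomal proteins these counts were 3, 5, 7 and 2. For cytosolic ribosomal proteins the balance turned with the covariate, to 3 risen and 6 fallen, and 4 rose without treated replicate 2, 6 without buffer replicate 2 and 15 under equal medians.

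Other machinery of gene expression fell in part, where 7.27% of all genes tested fell and 6.17% rose. The counts for the respiratory chain, given last, lie near these shares. Of 44 splicing factors 9 fell and 1 rose, with SRSF6 lower by 0.40 ± 0.05 (adjusted p = 7.71e-06) and PRPF3 by 0.50 ± 0.09. Of 35 proteasome subunits 8 fell and none rose, with the core subunit PSMA3 lower by 0.39 ± 0.05 (adjusted p = 2.47e-05) and the activator PSME3 by 0.36 ± 0.08. Splicing factors called fallen numbered 2 without treated replicate 2, 3 without buffer replicate 2, 5 with the covariate and 3 under equal medians, and proteasome subunits 1, 3, 1 and 0. Translation initiation was mixed, 6 of 37 fallen and 2 risen. EIF3K fell by 0.46 ± 0.07 and EIF2S2, the beta subunit of eIF2, by 0.40 ± 0.06, while EIF1 rose by 0.42 ± 0.07 and EIF3H by 0.35 ± 0.06. Among 19 aminoacyl-tRNA synthetases 3 fell, RARS1 by 0.36 ± 0.08, and 2 rose. NAA15, which anchors the N-terminal acetyltransferase to the ribosome and is on no list, was at 9.88 and 9.95 against 9.26 and 8.95 and fell by 0.81 ± 0.10 (adjusted p = 4.71e-06). Of 68 respiratory chain genes 7 fell and 3 rose, and without treated replicate 2 the fallen numbered 1: NDUFS8 fell by 0.43 ± 0.07 and NDUFS3 by 0.38 ± 0.07, and NDUFA13 rose by 0.54 ± 0.12.

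In the iron pathway the receptor itself rose. TFRC stood at 14.32 and 14.36 on the buffer arrays and at 14.94 and 14.93 on the treated arrays, so the arms did not overlap, and it rose 1.51-fold (0.59 ± 0.06, adjusted p = 1.64e-07). The ferritin light chain FTL, the storage side, was at 14.97 and 14.81 against 14.56 and 14.62 and fell by 0.30 ± 0.04 (adjusted p = 2.61e-05). STEAP3, the reductase of the transferrin cycle, fell by 0.29 ± 0.07, and PCBP2, an iron chaperone, rose by 0.29 ± 0.08. These were the 4 called of 16 tested in the list, whose median was -0.06. STEAP1, a relative of STEAP3 on no list, fell by 0.68 ± 0.08 (adjusted p = 5.48e-06), and its buffer level at 24 h lay above all IM-9 arrays of 0 to 9 h. For iron-sulfur clusters and heme 2 of 27 rose and 3 fell, against 6.17% and 7.27% of all genes tested. ISCU, the scaffold on which clusters form, lay higher on both treated arrays than on both buffer arrays and rose by 0.52 ± 0.08 (adjusted p = 0.000197). Of the cytosolic assembly factors, CIAO2B was higher by 0.55 ± 0.15 and CIAPIN1 and CIAO1 were lower by 0.61 ± 0.13 and 0.42 ± 0.10. With the brightness covariate 2 of this list were called risen and 0 fallen, so CIAPIN1 and CIAO1 lost the call. Under equal medians these counts were 0 and 1.

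Part of the hypoxia targets of glycolysis, which also answer to iron through the prolyl hydroxylases, rose. Of 24 glycolytic targets 8 rose and 1 fell, with a median of 0.19. PFKFB3, which makes the activator of phosphofructokinase, was at 9.05 and 8.79 against 9.39 and 9.87, no overlap, and rose by 0.71 ± 0.11 (adjusted p = 9.52e-05). Of the glycolytic list the risen numbered 4 without treated replicate 2, 4 without buffer replicate 2, 4 with the covariate and 1 under equal medians, where the median was -0.0079. ALDOC rose by 0.60 ± 0.10, GPI by 0.42 ± 0.08 and ENO1 by 0.25 ± 0.05. Of 24 other hypoxia targets 4 rose and none fell. P4HA1, a collagen prolyl hydroxylase, rose by 0.83 ± 0.13 (adjusted p = 0.000135), MIF by 0.42 ± 0.08 and the mitophagy receptor BNIP3 by 0.49 ± 0.16. Some of these genes also rose with the hour in buffer. ALDOC stood at 8.94 and 9.18 in buffer at 9 h and at 11.31 and 11.48 at 24 h. For BNIP3 these levels were 10.98 and 11.10, then 12.42 and 12.60, and for P4HA1 9.14 and 9.26, then 9.68 and 9.80. PFKFB3 and MIF did not rise in this way, and for MIF the buffer level at 24 h lay below all IM-9 arrays of 0 to 9 h. The cause was not tested. AK4, a mitochondrial adenylate kinase on no list, rose by 0.97 ± 0.16 (adjusted p = 0.00021), and its 2 other probes gave 0.38 and -0.01. The metallothionein MT2A rose by 0.67 ± 0.09 and MT1X fell by 0.32 ± 0.08 in a list of 25 with 3 risen and 5 fallen.

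For the remaining groups the counts of risen and fallen were 2 and 2 of 21 for cholesterol, with the sterol reductase TM7SF2 higher by 0.69 ± 0.17, and 3 and 2 of 26 for NF-kB targets, with EBI3 higher by 0.22 ± 0.05. They were 3 and 0 of 23 for immediate early genes, 7 and 1 of 43 for lysosome and autophagy, and 0 and 3 of 23 for histones. The shares over all genes tested were 6.17% and 7.27%. Of the lysosome list 2 were called risen without treated replicate 2, 1 without buffer replicate 2 and 0 under equal medians. DUSP4, a phosphatase that damps ERK, led the immediate early list with 9.13 and 9.17 against 9.73 and 9.78. Its rise was 0.60 ± 0.06 (adjusted p = 2.87e-07), although a second DUSP4 probe gave -0.02. The treated level was within the range of the IM-9 arrays at 0 to 9 h (9.72 to 10.83). The buffer level at 24 h lay below all of them, as it did for the risen genes CRYBG1, HSP90B1, SEC61B, RPS3A, RPL8, MT2A, PCNA, MIF, DDB2 and FAS. In DDB2 and FAS the treated arrays also lay above all other IM-9 arrays. H3-3B, a gene of the replacement histone H3.3, fell by 0.61 ± 0.11.

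Of the 1551 called genes, 1294 were on no list. F2R, the thrombin receptor PAR1, was at 9.61 and 9.66 against 10.74 and 10.47 and rose by 0.97 ± 0.07 (adjusted p = 1.65e-09). DHRS3, a retinal reductase, was at 9.09 and 8.88 against 9.71 and 10.18 and rose by 0.96 ± 0.08 (adjusted p = 2.8e-08). In both genes the arms stood apart, though the treated arrays of DHRS3 differed from each other by about as much as many called effects. CRYBG1 rose by 0.88 ± 0.07, RIMKLA, a synthase of N-acetylaspartylglutamate, by 0.80 ± 0.07, and the kinase PRKX by 0.67 ± 0.07. PEX26, an anchor for peroxisomal import, rose by 0.87 ± 0.18 but was called in 12 of 16 settings.

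On the falling side, IL16, the precursor of a T cell attractant, was at 8.87 and 8.74 against 8.42 and 8.43 and fell by 0.39 ± 0.04 (adjusted p = 1.93e-07). FJX1, a secreted regulator of planar polarity, fell by 0.61 ± 0.06 (adjusted p = 1.93e-07), the elongation factor ELL3 by 0.40 ± 0.04 and HOXB7 by 0.48 ± 0.05. The treated arrays of IL16 nearly coincided and lay below both buffer arrays. KYNU, which degrades kynurenine, fell by 0.56 ± 0.06, PAM16, of the mitochondrial import motor, by 0.49 ± 0.05, and ZBTB9 by 0.51 ± 0.06. UCP2, a mitochondrial carrier, fell by 0.73 ± 0.15 and was steady. In IL16, HOXB7, KYNU and UCP2 the buffer level at 24 h lay above every IM-9 array of 0 to 9 h. Several of the largest falls were less even: HNRNPF, an RNA-binding protein of the splicing list, stood at 9.26 and 9.92 against 9.01 and 8.52, a fall of 0.82 ± 0.20 (adjusted p = 0.00676). SSBP1, which binds mitochondrial DNA, stood at 13.32 and 13.97 against 13.29 and 12.58, a fall of 0.71 ± 0.23 (adjusted p = 0.0448). In each of them 1 buffer array lay close to treated replicate 1, and the call was made in 13 of 16 settings for HNRNPF and in 8 of 16 for SSBP1. COMMD2, CUTC, KCTD9, LARP1B and RPS6KB1, the S6 kinase gene, fell by 0.73 to 0.79 and were called in 10 to 15 of 16 settings; other LARP1B probes gave -0.21 and 0.03 and were not called.

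The effect at 24 h was set against that of 9 h, with which it shares no array. At 1, 3 and 9 h, 0 (232 at an unadjusted p under 0.05, by limma), 2 and 10 genes were called. The difference between the 24 h and 9 h effects was called in 1227 genes (10.6% of those tested), 471 of the 712 risen and 474 of the 839 fallen among them. TP53I3 had moved by -0.19 at 9 h, a difference between the hours of 1.85 ± 0.14 (adjusted p = 1.55e-08), and CDKN1A by -0.08, a difference of 1.03 ± 0.12 (adjusted p = 1.4e-05). APOBEC3G had moved by -0.20 at 9 h and CCR7 by -0.00, differences of 1.19 ± 0.07 and 0.60 ± 0.05. In these genes the treated arrays of 24 h lay above every other IM-9 array. TFRC had its effect already 0.32 at 9 h and a further 0.27 ± 0.08 by 24 h (adjusted p = 0.0275): the treated arrays were at 14.80 and 14.82 at 9 h, and the buffer arrays at 14.44 and 14.55. IRF4 differed between the hours by 0.57 ± 0.12 (adjusted p = 0.00351), which became -0.03 under equal medians, and PRDM1 by 0.44 ± 0.22 (adjusted p = 0.21). HSPA1B differed by -0.70 ± 0.11 (adjusted p = 0.000421) and DNAJB1 by -0.72 ± 0.09 (adjusted p = 2.82e-05). The differences of -1.33 for HNRNPF and -1.35 for KCTD9 joined a fall at 24 h to values of 0.51 and 0.61 at 9 h. Since the 4 arrays of 24 h have a lower 5th percentile than all earlier IM-9 arrays, hour and array background cannot be told apart in these differences.

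**Figure D5:**
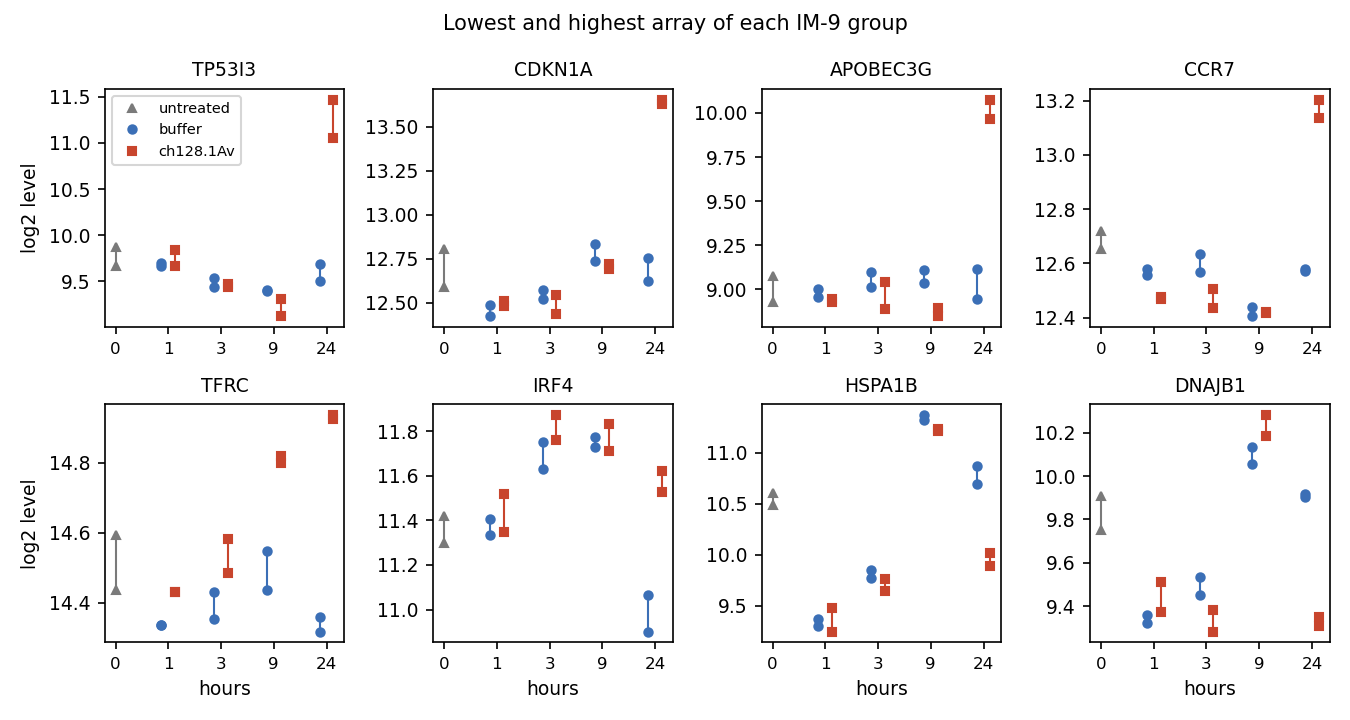
Log2 level of 8 genes in IM-9 by hour; the points joined by a line are the lowest and highest array of a group (2 arrays, or 3 for ch128.1Av at 3 h). The arms part at 24 h in TP53I3, CDKN1A, APOBEC3G and CCR7 and already at 9 h in TFRC, whereas in IRF4 the buffer level at 24 h is the lowest of all hours, and HSPA1B and DNAJB1 also move with the hour in both arms.

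In U266, which the labels call tolerant, 2 genes were called at 24 h (816 at an unadjusted p under 0.05, by limma), and the IM-9 effect exceeded or fell short of the U266 effect in 568 genes (4.92% of those tested). Among them were 248 of the risen and 269 of the fallen genes of IM-9. TP53I3 moved by -0.28 in U266, a difference between lines of 1.94 ± 0.14 (adjusted p = 1.46e-08), and CDKN1A by 0.20, a difference of 0.75 ± 0.12 (adjusted p = 0.000671). The difference was 0.97 ± 0.07 for APOBEC3G, 0.61 ± 0.05 for CCR7, -0.87 ± 0.11 for HSPA1B and -0.65 ± 0.09 for DNAJB1. All of these had an adjusted p under 0.05. TFRC rose in U266 as well, by 0.41 (adjusted p = 0.00168), and the lines differed by 0.18 ± 0.08 (adjusted p = 0.174). IRF4 differed by 0.36 ± 0.12 (adjusted p = 0.073), which missed the threshold. Among the largest positive differences were PLEKHF1, at 0.73 in IM-9 and -0.81 in U266, and TXNIP, the inhibitor of thioredoxin, at 0.55 and -0.91. PLEKHF1 was called in IM-9 (adjusted p = 0.0297) and not in U266 (adjusted p = 0.231), and TXNIP in neither line (adjusted p = 0.0802 and 0.188). Their differences were 1.54 ± 0.31 (adjusted p = 0.00572) and 1.46 ± 0.29 (adjusted p = 0.00528). The brightness ratio was 4.23 and 5.99 on the U266 buffer arrays and 5.83 and 5.19 on the treated ones, so that the arms overlapped there and did not in IM-9.

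The number and balance of calls moved with how brightness was handled. Under equal medians in place of quantile normalization the median of all genes was -0.15, with 61 risen and 687 fallen genes, so that 8.16% of the calls were rises against 45.9%. With cyclic loess the share was 37.5%. Under equal medians the fitted differences of TNFRSF10B, AEN, RPL37, CXCL10, APOBEC3F, HLA-E and HLA-F turned to between -0.07 and -0.00, and under cyclic loess that of HSPA8 to 0.01. The shift of -0.15 depended on level: cut by mean level into 5 groups from dim to bright, the genes had medians of 0.0018, -0.059, -0.28, -0.43 and -0.30. Relative to -0.15, and so with part of the shift of their level still in them, the median of the p53 targets for arrest and repair was 0.30, that of the heat shock chaperones -0.34, of the mitotic genes -0.35 and of the cytosolic ribosomal proteins 0.45. With the brightness ratio of each array as a covariate 284 genes rose and 301 fell, 246 and 259 of them called in the same direction as before. Without treated replicate 2, the dimmest array, 203 rose and 194 fell, 194 and 185 of them as before. Calls were also spread unevenly over level: of the same 5 groups, 0.303% rose and 0.303% fell in the dimmest, and 10.1% and 11.1% in the brightest.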

How the data were processed

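Total RNA of 39 samples was hybridised to Illumina BeadChips, processed in BeadStudio per the submitters' processing notes (version not given in the sources used here). The deposited table holds, per the file headers, 1 signal and 1 detection column per array: a raw intensity per probe with no scaling seen in the values, and a detection score that is a fraction between 0 and 1. The authors' deposited log2 values, found from the values to be quantile-normalized, served as an alternative; 78 other per-sample columns were not used.

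With limma 3.58.1 (R 4.3.3), intensities were background-corrected (normexp, with 1 minus the detection score as detection p, offset 16), quantile-normalized and taken to log2. A probe entered if 2 or more arrays had it at a detection p under 0.01 (12080 of 20589 did). The probe with the highest mean stood for a gene, giving 11538 genes, 1139 without a symbol. One model of 18 group means over 39 arrays gave each contrast, with Benjamini-Hochberg adjustment over all genes and calls at an adjusted p under 0.05. Only the model fit was tested on simulated data, with differences planted in levels already normalized. That test did not cover background correction, normalization, the detection filter or a difference in brightness between the arms. The number of arrays limits the precision.

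Named genes were 8 always given, the 12 largest and 12 steadiest changes each way, the 4 members of smallest p per list and the 5 largest differences each way between hours and lines, of which a subset, chosen after the values were seen, is printed. The steady rule names none when the fit of the 4 arrays counts. The 36 lists and this comparison were chosen with earlier results of these data known. Alternatives covered normalization, background, the detection filter, a brightness covariate, array weights, the arrays fitted, a replicate block and each replicate left out.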

Additional observations from a re-analysis of the deposited data

Results flagged for a closer look

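Effects that differed between hours or lines, by a test of the difference itself in the limma fit (adjusted p under 0.05), were these. The IM-9 effect at 24 h differed from that at 9 h in 1227 genes and from the U266 effect at 24 h in 568. Between IM-9 and U266 the difference was 1.94 for TP53I3, 1.54 for PLEKHF1, 1.46 for TXNIP, 0.97 for APOBEC3G, 0.75 for CDKN1A and 0.61 for CCR7. It was -0.87 for HSPA1B and -0.65 for DNAJB1. Between 24 h and 9 h in IM-9 the difference was 1.85 for TP53I3, 1.19 for APOBEC3G, 1.03 for CDKN1A, 0.60 for CCR7, 0.57 for IRF4 and 0.27 for TFRC. It was -0.70 for HSPA1B, -0.72 for DNAJB1, -1.33 for HNRNPF and -1.35 for KCTD9. All are log2 values. With the brightness ratio as a covariate the counts were 265 between hours and 168 between lines, and under equal medians 459 and 12. Beyond that covariate, the part of array brightness in these differences was not tested.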

How the results depend on the processing

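Against 712 risen and 839 fallen genes, 1227 differing between hours and 568 between lines, equal medians gave 61 risen, 459 and 12. The brightness covariate gave 284, 301, 265 and 168. Array weights gave 317 risen, 348 fallen and 284 between lines. The authors' log2 values gave 300 between lines and no background correction 301. Leaving out 1 array gave 203 to 1104 risen, 194 to 1224 fallen, 310 to 2215 between hours and 186 to 1619 between lines: without buffer replicate 2 the counts were 245, 302, 317 and 188, without treated replicate 1 1104, 1224, 2215 and 1619, and without treated replicate 2 203, 194, 310 and 186. The 4 arrays normalized and fitted alone called 0 and 0 genes by limma (1575 at an unadjusted p under 0.05). With the replicate block 513 rose, 565 fell, 577 differed between hours and 305 between lines. Same-numbered arrays correlated at -0.47 in their deviations, and the labels do not say whether they were paired. Directions turned in values near 0. BBC3 was -0.10 under equal medians and -0.074 with the covariate. MYC was -0.26 under equal medians and from -0.012 (without treated replicate 2) to 0.092 with 1 array left out. MKI67 was 0.10 with cyclic loess, 0.0074 with the authors' log2 values, 0.0070 with no background correction, and -0.16 to 0.16 with 1 array left out (0.079 without treated replicate 1). Equal medians gave -0.0026 for TNFRSF10B, -0.040 for AEN, -0.056 for RPL37, -0.0075 for CXCL10, -0.048 for APOBEC3F, -0.055 for HLA-E, -0.069 for HLA-F, and for 24 h minus 9 h -0.20 for PRDM1 and -0.033 for IRF4. HSPA8 was 0.0096 with cyclic loess. The cause of these changes was not tested. Of 133 genes followed, an offset of 50 and detection on all 4 arrays moved no call.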
